A study of Homo sapiens with 2 samples.

Results

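Aminoacyl-tRNA synthetases are the enzymes that join each amino acid to its transfer RNA (tRNA), the step that supplies the ribosome with charged tRNAs. The account below covers 35 synthetase genes in TPC-1, an established line of human papillary thyroid carcinoma cells. They were chosen by name from a gene table of 58884 genes: 19 encode the cytosolic enzymes and 16, whose symbols end in 2, encode the enzymes imported into mitochondria. All 35 were found in the table. The rule goes by name alone, though the group was chosen with earlier results of these data known.

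The series holds 2 RNA-seq libraries, 1 from TPC-1 cells given a control siRNA and 1 from TPC-1 cells given an siRNA against XPR1, the phosphate exporter of the plasma membrane. Both groups are the same line and were transfected. With 1 library per group there is no replicate check of any difference, so no p-value is given, and every comparison below is between these 2 libraries. Levels are in TPM, the share of a library's transcripts corrected for gene length. The XPR1 transcript stood at 39.2 TPM with the control siRNA and at 5.31 TPM with the XPR1 siRNA, 13.5% of the control level.

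About 15780000 and 15150000 counted reads stood behind the control and the XPR1-siRNA library. Of 8 thyroid markers, 3 (PAX8, FOXE1 and HHEX) had a mean of at least 1 TPM, and TSHR, SLC5A5 and NKX2-1 were listed at 0 in both libraries. Of 6 epithelial markers, the keratins KRT7, KRT8 and KRT18 reached that level, while EPCAM was listed at 0. No leukocyte marker of 5 reached it. Summed over the thyroid list the level was 613.2 and 435.7 TPM, mostly PAX8 (588.1 and 408.6 TPM), and over the epithelial list 197.2 and 135.5 TPM, with KRT7 at 11.1 and 3.39 TPM. The fibroblast list summed to 1.31 and 7.78 TPM, mostly COL1A1 (1.04 and 6.67 TPM), and the endothelial list to 2.36 and 1.08 TPM. The part of these marker differences in the results below was not tested. In a bulk sample, fewer cells of a type and less RNA per cell cannot be told apart.

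Cells keep separate synthetase sets for the cytosol and for mitochondria, all encoded in the nucleus. The cytosolic set serves the translation of nuclear mRNAs, and part of it sits in a large multisynthetase complex. The mitochondrial set charges the tRNAs made from mitochondrial DNA, which are used to build core subunits of the respiratory chain. GARS1 and KARS1 each encode both the cytosolic and the mitochondrial enzyme. Many cytosolic synthetase genes are known targets of ATF4, the transcription factor of the integrated stress response and of amino acid shortage. ATF4 acts with C/EBP partners at a composite DNA element, the C/EBP-ATF response element.

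Most cytosolic synthetase mRNAs were lower in the XPR1-siRNA library, and most mitochondrial ones were not. The median difference in log2(TPM + 1), XPR1 siRNA minus control, was -0.61 over the 19 cytosolic genes and 0.27 over the 15 mitochondrial genes whose mean reached 1 TPM, a gap of -0.88 between the medians. The means were -0.67 and 0.08. Over all 16319 genes with that mean, the median was 0.05. Summed over the 19 cytosolic genes, the level was 4116 TPM with the control siRNA and 2413 TPM with the XPR1 siRNA, a ratio of 0.586. Summed over all 16 mitochondrial genes it was 451.8 and 505.0 TPM, a ratio of 1.12. Cytosolic synthetase mRNA outweighed mitochondrial synthetase mRNA 9.11-fold in the control library and 4.78-fold in the XPR1-siRNA library.

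Differences of at least 1.5-fold on the log2(TPM + 1) scale were counted. Of the 19 cytosolic genes, 10 were lower by that much and none was higher. Among all 16319 genes, 16.6% were lower and 21.7% higher by that much. Among the 8264 protein-coding genes whose mean reached 10 TPM, nearer to the levels of the cytosolic members, the shares were 11.2% and 18.5%. At 2-fold, 6 cytosolic genes were lower (WARS1, SARS1, AARS1, YARS1, MARS1 and GARS1) and none was higher, beside 8.57% lower and 10.4% higher among all genes and 4.51% lower and 7.08% higher in the protein-coding set. Of the 15 mitochondrial genes, 2 were at least 1.5-fold lower (PARS2 and MARS2), none was 1.5-fold higher and none reached 2-fold on this scale. PARS2 lay just short of 2-fold at -0.97 and passed it under each of 3 other scalings between libraries (-1.01 to -1.04). The cytosolic gene CARS1 likewise lay just short at -0.98 and passed it under the same scalings (-1.04 to -1.07). The share of mitochondrial genes that were 1.5-fold lower, 13.3%, is near the background. Among the lowest 10% of all genes by difference stood 7 cytosolic members and 1 mitochondrial member.

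**Figure D1:**
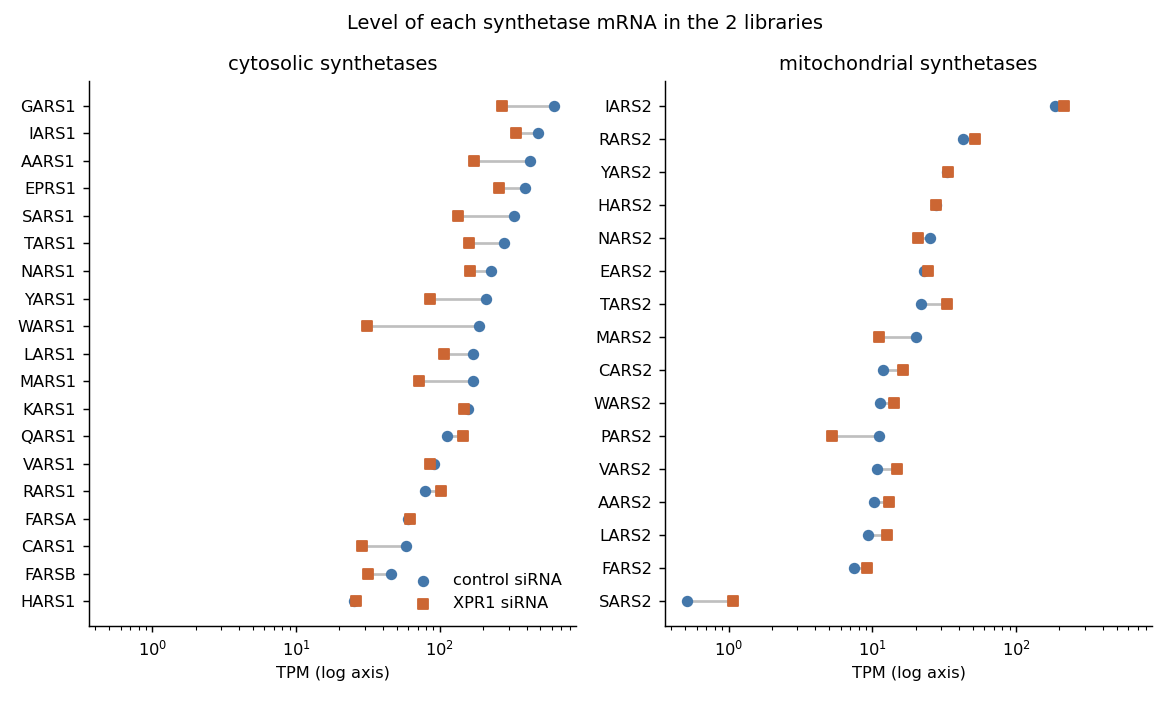
Level of each synthetase mRNA in TPM (log axis) in the control-siRNA library (circles) and the XPR1-siRNA library (squares), cytosolic genes on the left and mitochondrial genes on the right, ordered by the control level, with 1 library per point. Most cytosolic squares lie left of their circles, farthest for WARS1 at 188.0 and 31.3 TPM, while most mitochondrial squares lie on or right of theirs.

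A promoter window from 250 bases before to 50 after a transcript start, taken from RefSeq, build GRCh38.p14, was at hand for 30 of the 35 genes, 16 cytosolic and 14 mitochondrial. No entry was matched for YARS1, LARS1, VARS1, AARS2 and VARS2. The letters TGATGNAAN, the core of the C/EBP-ATF response element, were searched on both strands, where N is any base. They stood in 7 of the 16 cytosolic genes and in 1 of the 14 mitochondrial genes. Of all 27305 genes with a window, 4.45% held them, and of the protein-coding genes 3.60%. The matches are printed to show the sequence behind these counts. Each line gives 30 bases, 5′ to 3′ on the strand that carries the letters, with the match in capitals.
AARS1: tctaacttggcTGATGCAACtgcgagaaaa
CARS1: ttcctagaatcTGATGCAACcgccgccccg
GARS1: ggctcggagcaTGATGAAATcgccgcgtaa
IARS1: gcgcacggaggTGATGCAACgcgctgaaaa
MARS1: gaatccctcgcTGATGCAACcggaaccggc
NARS1: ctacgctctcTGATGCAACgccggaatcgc
TARS1: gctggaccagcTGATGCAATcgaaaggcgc
YARS2: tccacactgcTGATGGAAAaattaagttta

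The 30-base windows lie at chr16:70289675-70289704 for AARS1 (plus strand), chr11:3057407-3057436 for CARS1 (plus), chr7:30594834-30594863 for GARS1 (minus) and chr9:92293692-92293721 for IARS1 (plus). Those of MARS1, NARS1, TARS1 and YARS2 lie at chr12:57488053-57488082, chr18:57621803-57621832, chr5:33440956-33440985 and chr12:32756075-32756104, all read on the minus strand. In CARS1 and MARS1 the match spans the transcript start, and in IARS1 and GARS1 it ends 6 and 26 bases before it. In NARS1 and TARS1 the match begins 15 and 2 bases into the transcript. The AARS1 and YARS2 matches lie farther upstream, ending 180 and 189 bases before the start. CARS1, GARS1 and TARS1 each have another RefSeq start, and these positions refer to the start whose window holds the match. For GARS1 and TARS1 the other start lies upstream of the match. A match is a description of the letters, not evidence of binding.

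All 7 cytosolic genes with the letters were lower in the XPR1-siRNA library, with differences from -1.29 to -0.48 and a median of -0.98, and 5 of the 7 were at least 1.5-fold lower. The 9 cytosolic genes with a window but without the letters had a median of -0.08, with 5 below 0 and 4 above it. WARS1, SARS1 and EPRS1 were at least 1.5-fold lower without a match in their windows, so the letters did not sort the genes cleanly. The mitochondrial gene with the letters, YARS2, differed by 0.01. Over all 288 genes that reached a mean of 1 TPM and held the letters, members included, 26.0% were at least 1.5-fold lower, beside 11.8% of the 10310 such genes with a window.

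**Figure D2:**
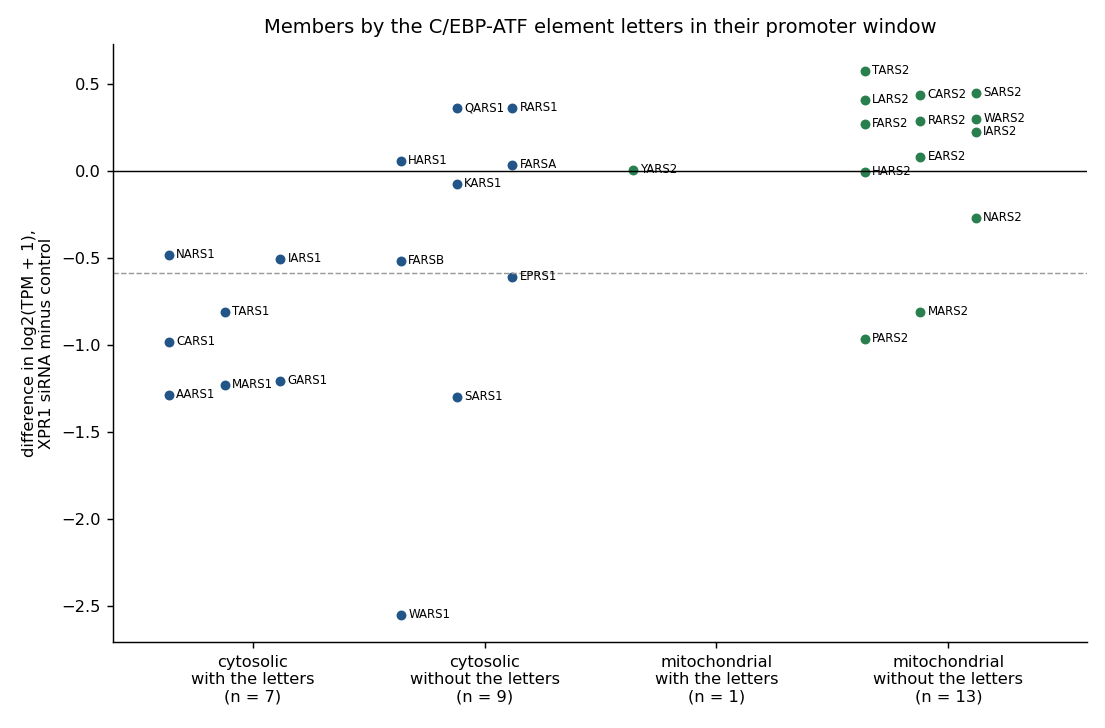
Difference in log2(TPM + 1), XPR1 siRNA minus control, for the 30 members with a promoter window, split by compartment and by whether the letters TGATGNAAN stand in it. Each point is 1 gene, the dashed line marks 1.5-fold lower and SARS2, shown, is under the 1 TPM floor. All 7 cytosolic genes with the letters lie below 0, and WARS1, without them, lies lowest at -2.55.

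WARS1, the tryptophan enzyme, showed the largest difference of the 35. Its level was 188.0 TPM with the control siRNA and 31.3 TPM with the XPR1 siRNA, which is 6.0-fold lower (95% Clopper-Pearson interval 5.58 to 6.48 from 5045 and 808 recovered reads). The interval, here and below, covers counting error only. WARS1 ranked 151 from the lowest among the 16319 genes. The gene (ENSG00000140105, chr14:100333788-100376805 in GENCODE 29) shares 10.6% of its exonic bases with genes on the other strand (the antisense gene ENSG00000258521 stood at 2.58 and 0.892 TPM), and reads of the unstranded libraries cannot be told apart there. WARS1 is known as an interferon-induced synthetase as well as a housekeeping enzyme.

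The alanine, serine and tyrosine enzymes followed closely together. SARS1 stood at 329.1 and 133.1 TPM in the control and XPR1-siRNA libraries, 2.47-fold lower (2.35 to 2.60). AARS1 stood at 425.0 and 173.6 TPM, 2.45-fold lower (2.35 to 2.55). YARS1 stood at 209.6 and 85.6 TPM, also 2.45-fold lower. The counting intervals of these genes overlap, so their order is not resolved.

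GARS1, the glycine enzyme of both compartments, was the most abundant synthetase mRNA in the control library. It stood at 621.9 TPM there and at 269.1 TPM in the XPR1-siRNA library, 2.31-fold lower (2.23 to 2.39), where IARS1 was the most abundant. KARS1, the lysine enzyme and the other gene that serves both compartments, stood at 155.8 and 147.8 TPM, and its counting interval of the ratio, 0.897 to 1.00, just included equality. The pair of genes that feed both compartments thus differed from each other in these libraries.

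MARS1, the methionine enzyme, stood at 169.4 and 71.8 TPM, 2.36-fold lower (2.24 to 2.49). Its end overlaps DDIT3 on the other strand, the gene of the stress-induced factor CHOP, and 13.3% of MARS1's exonic bases are shared with other genes. DDIT3 itself stood at 67.4 and 5.84 TPM, with 39.6% of its exonic bases shared. As the libraries carry no strand, the reads of MARS1 and DDIT3 cannot be told apart where they overlap.

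The other cytosolic genes at least 1.5-fold lower were those for cysteine, threonine, leucine, and glutamate with proline. CARS1 stood at 57.7 and 28.7 TPM, 2.01-fold lower (1.87 to 2.16), and TARS1 at 277.9 and 158.3 TPM. LARS1, the leucine enzyme, which also serves as a leucine sensor upstream of mTORC1, stood at 171.0 and 107.3 TPM, 1.59-fold lower (1.53 to 1.66). EPRS1, the fused enzyme for glutamate and proline, stood at 393.2 and 257.4 TPM, 1.53-fold lower (1.48 to 1.58). LARS1 and EPRS1 lie just past the 1.5-fold line.

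Just inside that line were FARSB, IARS1 and NARS1. FARSB, the beta subunit of the phenylalanine enzyme, stood at 45.5 and 31.5 TPM. IARS1 stood at 479.9 and 337.2 TPM, 1.42-fold lower (1.39 to 1.46), and NARS1, the asparagine enzyme, at 225.0 and 160.8 TPM, 1.40-fold lower (1.33 to 1.47). These 3 genes were lower with counting intervals that leave out equality.

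The remaining 6 cytosolic genes, KARS1 among them, did not share this direction or barely did. VARS1 stood at 90.2 and 84.9 TPM, FARSA at 60.3 and 61.7 TPM, and HARS1 at 25.1 and 26.1 TPM. The FARSA and HARS1 intervals include equality, and that of VARS1 (0.887 to 0.999) barely leaves it out. FARSA and FARSB encode the alpha and beta subunits of 1 enzyme, and only FARSB was lower beyond counting error. QARS1, the glutamine enzyme, stood at 112.3 and 144.4 TPM, and RARS1, the arginine enzyme, at 79.1 and 102.0 TPM, both with a ratio of 1.29. QARS1 and RARS1 are the cytosolic genes whose intervals lie wholly above equality, while 14 of the 19 lie wholly below it. Intervals this narrow leave out equality for many genes: 24.7% of all genes with recovered reads lay wholly below it and 32.3% wholly above it, and in the protein-coding set 34.3% and 43.7%. With intervals wholly past 1.5-fold lower, the counts were 9 cytosolic genes and 1 mitochondrial gene, beside 6.72% of all genes and 8.23% of the protein-coding set.

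**Figure D3:**
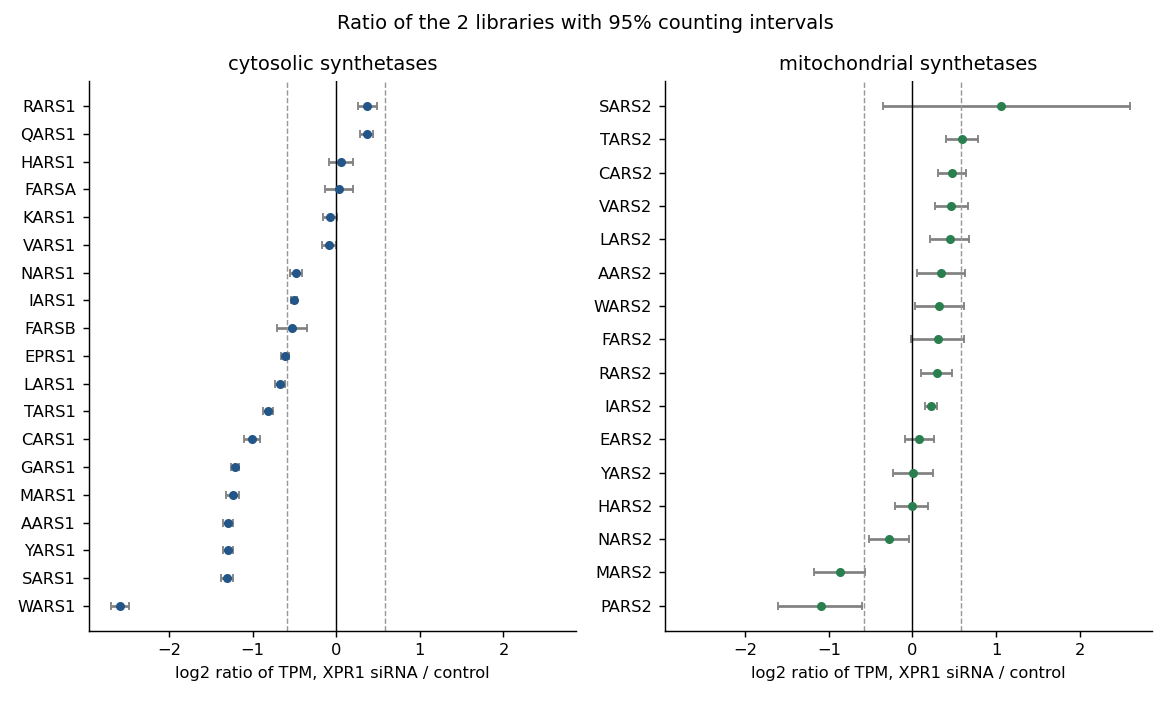
Ratio of TPM, XPR1 siRNA over control, on a log2 axis for each synthetase gene, with bars for the 95% Clopper-Pearson counting interval from recovered reads and dashed lines at 1.5-fold. The bars hold counting error only, with 1 library per group. Of the cytosolic genes 14 lie wholly below equality and 2 wholly above it, and of the mitochondrial genes 3 and 8, beside 24.7% and 32.3% of all genes.

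Members of the multisynthetase complex were compared with cytosolic enzymes outside it. The 7 members (EPRS1, IARS1, KARS1, LARS1, MARS1, QARS1 and RARS1) summed to 1561 and 1168 TPM, a ratio of 0.748, with 3 at least 1.5-fold lower. The 12 genes outside it summed to 2555 and 1245 TPM, a ratio of 0.487, with 7 at least 1.5-fold lower. The medians were -0.51 and -0.90. Synthetases also fall into class I and class II by the fold of their catalytic domain. The medians of the cytosolic class I and class II genes were -0.67 and -0.52 (9 genes each, EPRS1 left out as it holds both), with 5 and 4 at least 1.5-fold lower. No test of these subgroup differences was made, since genes are not replicates of a condition.

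Among the mitochondrial enzymes, PARS2 and MARS2 stood apart from the rest on the low side. PARS2, the proline enzyme, stood at 11.2 TPM with the control siRNA and 5.23 TPM with the XPR1 siRNA, 2.14-fold lower (1.52 to 3.05) from 111 and 50 recovered reads. MARS2, the methionine enzyme, stood at 20.3 and 11.1 TPM, and its interval reached from 1.48 to 2.26-fold lower. NARS2 was also lower beyond counting error, at 25.3 and 20.8 TPM (ratio 0.823, interval 0.699 to 0.970).

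On the high side, 8 of the 15 mitochondrial genes above the floor had intervals wholly above equality, all with ratios of 1.51 or less. The share of all genes above equality was 32.3% and that of the protein-coding set 43.7%, so the count of 8 is not far from the background. TARS2, the threonine enzyme, had the highest, at 21.9 and 33.0 TPM (ratio 1.51, 1.32 to 1.73). CARS2 stood at 11.9 and 16.4 TPM, VARS2 at 10.8 and 14.9 TPM, and LARS2 at 9.28 and 12.6 TPM, with ratios of 1.38, 1.38 and 1.36. VARS2 shares 22.0% of its exonic bases with other genes. IARS2, the isoleucine enzyme and by far the most abundant mitochondrial synthetase mRNA, stood at 185.5 and 216.5 TPM (ratio 1.17, 1.11 to 1.22).

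The ratios of the next 4 genes lie between that of IARS2 and that of LARS2. RARS2 stood at 42.6 and 52.1 TPM, WARS2 at 11.2 and 14.0 TPM, and AARS2 at 10.2 and 13.0 TPM, with ratios from 1.22 to 1.27. FARS2 stood at 7.45 and 9.17 TPM, and its interval included equality. HARS2 (27.7 and 27.6 TPM), YARS2 (33.1 and 33.3 TPM) and EARS2 (22.9 and 24.2 TPM) were within counting error of equality. SARS2, the serine enzyme, stood under the 1 TPM floor at 0.513 and 1.07 TPM, from 7 and 14 reads. Its ratio of 2.08 has an interval of 0.785 to 6.09, so a difference was not detectable from these reads. Exons of other genes cover 57.0% of its exonic bases, so its level may be understated.

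Setting each cytosolic enzyme beside the mitochondrial enzyme for the same amino acid gave 16 pairs above the floor, with EPRS1 and FARS2 each in 2 of them. The cytosolic gene had the lower difference in 13 of the 16 pairs. The median of cytosolic minus mitochondrial difference was -0.71. Tryptophan showed the widest gap, -2.85, as WARS1 exceeded WARS2 by 16.8-fold in the control library and by 2.23-fold in the XPR1-siRNA library. Alanine followed with -1.60, where AARS1 exceeded AARS2 by 41.6-fold and 13.4-fold, and cysteine with -1.42.

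The pairs with the opposite order were proline, arginine and histidine. For proline, EPRS1 and PARS2 were both lower, PARS2 by more, and the gap was 0.36. Methionine was the other amino acid with both enzymes at least 1.5-fold lower, MARS1 by more than MARS2. For arginine, RARS1 and RARS2 were both higher and the gap was 0.08. For histidine it was 0.07, with HARS1 and HARS2 each near equality.

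**Figure D4:**
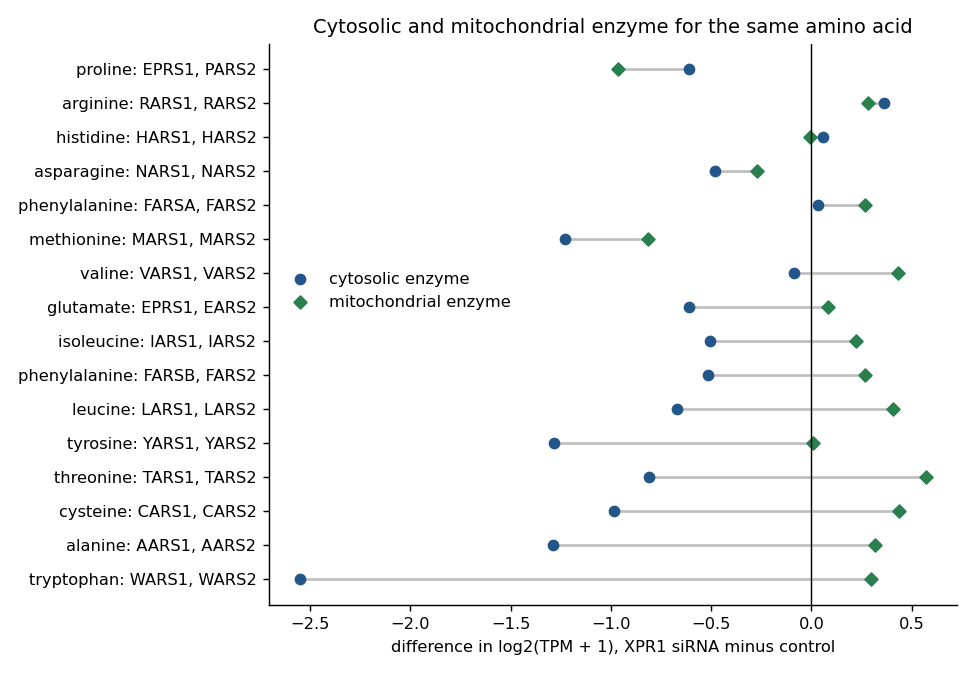
Difference in log2(TPM + 1), XPR1 siRNA minus control, of the cytosolic enzyme (circles) and the mitochondrial enzyme (diamonds) for the same amino acid, in the 16 pairs above the floor. The circle lies left of the diamond in 13 pairs, and the widest gap is that of tryptophan, -2.85.

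HARS1 and HARS2 are neighbours that are read away from each other from a shared stretch of DNA, and their levels were close in both libraries, with HARS1 at 0.905 and 0.949 times the HARS2 level. In GENCODE 29 other genes, each other included, cover 8.38% of the exonic bases of HARS1 and 15.8% of those of HARS2, and unstranded reads there cannot be told apart. The RefSeq starts of the pair lie on either side of 84 bases at chr5:140691371-140691454 (GRCh38.p14). That stretch is printed on the plus strand, since HARS1 and HARS2 are the only members that start within 1000 bases of each other. Capitals mark 2 matches to the letters CCGGAAG, an ETS-type motif, on either strand.
HARS1-HARS2: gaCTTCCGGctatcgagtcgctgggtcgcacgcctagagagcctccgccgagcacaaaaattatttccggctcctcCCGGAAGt

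Other members also start within 1000 bases of a gene on the other strand in GENCODE 29. Protein-coding neighbours with a mean of at least 1 TPM are given first. DDX19B, beside AARS1, stood at 17.1 and 12.8 TPM, a difference of -0.39 against -1.29 for AARS1. WDR25, beside WARS1, stood at 5.11 and 2.92 TPM, and TERF2IP, beside KARS1, at 74.8 and 42.5 TPM. TERF2IP differed by -0.80 where KARS1 differed by -0.08. On the mitochondrial side, ORC3, beside RARS2, stood at 10.9 and 20.2 TPM, while ING1, UBFD1, LYRM4 and MRPS12, beside CARS2, EARS2, FARS2 and SARS2, differed by -0.19, -0.30, 0.00 and 0.41. Among non-coding neighbours with that mean, GARS1-DT stood at 2.96 and 2.17 TPM, TARS1-DT at 6.62 and 2.75 TPM, and WARS2-AS1 at 6.94 and 5.23 TPM. They differed by -0.32, -1.02 and -0.35, beside -1.21, -0.81 and 0.30 for GARS1, TARS1 and WARS2. Neighbours in such pairs did not always take the direction of the synthetase.

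Other genes of tRNA use were taken from companion lists. Among all 16319 genes, 16.6% were at least 1.5-fold lower and 21.7% higher. The non-enzyme scaffold of the multisynthetase complex gave AIMP1 at 43.1 and 26.2 TPM, AIMP2 at 26.7 and 18.7 TPM, and EEF1E1 at 13.8 and 18.6 TPM, so 1 of 3 was at least 1.5-fold lower. Cytosolic elongation factors had none past 1.5-fold among 5 measured genes and a median of -0.08, with EEF2 at 3406 and 2613 TPM, EEF1A1 at 8320 and 6805 TPM, and EEF1D at 34.1 and 32.3 TPM. Genes of tRNA export and maturation had 3 lower and 3 higher of 16 and a median of 0.08. XPOT, which exports tRNA from the nucleus, stood at 275.5 and 139.9 TPM, 1.97-fold lower. POP5, a subunit of RNase P, stood at 4.47 and 12.8 TPM, and TSEN34, of the tRNA splicing endonuclease, at 28.6 and 61.2 TPM. The proofreading factors DTD1 (13.9 and 9.87 TPM), DTD2 (24.0 and 23.1 TPM) and AARSD1 (1.28 and 1.46 TPM) had none past 1.5-fold.

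On the mitochondrial side, the charging partners that make glutaminyl-tRNA or formyl-methionyl-tRNA had none of 4 past 1.5-fold and a median of 0.15. GATB stood at 4.74 and 6.36 TPM, MTFMT at 8.42 and 11.0 TPM, and GATC at 26.8 and 25.2 TPM. Mitochondrial translation factors had 1 lower of 9 and a median of -0.26. The lower one was MRRF, the ribosome recycling factor, at 33.3 and 20.4 TPM. The elongation factor GFM1 stood at 38.0 and 28.5 TPM and the initiation factor MTIF2 at 42.6 and 33.0 TPM. Of the 9 genes, 5 lay below 0 and 4 above it, and they summed to 393.2 and 399.5 TPM. With a floor of 0.1 TPM or no floor, the median was -0.12. Mitochondrial tRNA maturation had 1 lower and 1 higher of 14 and a median of 0.04. YRDC, which makes a modified adenosine of tRNAs, stood at 57.7 and 26.1 TPM. TRMT61B, a tRNA methyltransferase, stood at 14.1 and 22.7 TPM, and HSD17B10, a subunit of mitochondrial RNase P, at 74.0 and 107.8 TPM.

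Genes of the integrated stress response and of amino acid supply under ATF4 are given for their levels beside the cytosolic synthetases. They were chosen with earlier results of these data known and are no independent support. Of 18 stress response genes, 12 lay past 1.5-fold on the lower side and 3 on the higher, and the median was -1.08. Among all genes, 16.6% were lower and 21.7% higher by that much. The 3 higher genes were ATF5, EIF2AK4 and GCN1, with differences of 0.81, 0.71 and 0.66. ATF4 stood at 1184 and 543.6 TPM, 2.18-fold lower (2.11 to 2.25). PPP1R15A, the GADD34 phosphatase subunit that lets translation recover, stood at 235.3 and 28.4 TPM, and CHAC1, which breaks down glutathione, at 110.6 and 13.2 TPM. Of 16 supply genes, 12 lay past 1.5-fold on the lower side and 1 on the higher (ALDH18A1, 0.84), and the median was -1.47. SLC7A11, the cystine carrier, stood at 72.1 and 11.1 TPM, SLC1A4, a neutral amino acid carrier, at 31.9 and 4.65 TPM, and ASNS, asparagine synthetase, at 6.34 and 0.503 TPM. The ASNS values rest on 119 and 9 recovered reads. As 44.6% of its exonic bases are shared with other genes, its level may be understated. The cytosolic synthetase median of -0.61 lies between these medians and the median of all genes, 0.05.

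**Figure D5:**
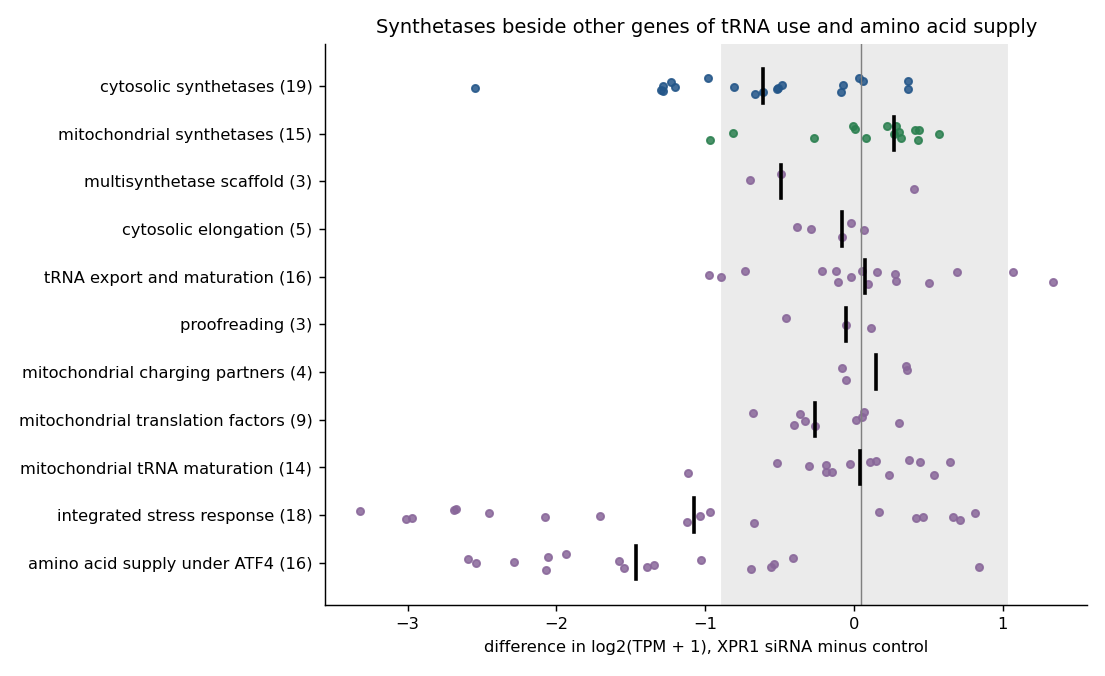
Difference in log2(TPM + 1), XPR1 siRNA minus control, of each gene whose mean reached 1 TPM in the synthetase groups and in 9 companion lists, with the number of genes in brackets. Black bars are medians, the grey line is the median of all genes and the grey band runs from their 10th to their 90th percentile. The cytosolic median lies at -0.61 and the mitochondrial at 0.27.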

How the data were processed

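The authors deposited TPM values, each library summing to 1000000, for 58884 genes in 1 table holding both libraries. TPM is a length-corrected share of transcripts. Build GRCh38, featureCounts 2.0.0, Trimmomatic 0.38, MultiQC and FastQC are named in the submitters' processing notes. Not given in the sources used here are the siRNA sequences, the time between transfection and harvest, the aligner and the annotation release. Per the labels' protocols, the library kit was TruSeq RNA v2, which keeps no strand. Reads of overlapping or antisense genes thus cannot be told apart by strand. How reads in shared stretches were counted is not known here. EEF1G, with 99.9% of its exonic bases shared with other genes, was listed at 0 TPM in both libraries. Levels of genes with shared exons may therefore be understated. A table of gene identifiers gave symbols for 58472 genes, and GENCODE 29 coordinates, lengths and overlaps.

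Differences are log2(TPM + 1), XPR1 siRNA minus control, counted at 1.5-fold and 2-fold for the 16319 genes whose mean reached 1 TPM. This scale understates differences of low genes. Folds are ratios of TPM. With 1 library per group, no test was made. The members and lists were chosen with earlier results of these data known. Named genes were all members, XPR1, ATF4, and the 3 genes of each companion list with the largest absolute difference. Genes that start within 1000 bases of a member's start on the other strand were named if their mean reached 1 TPM. Not every gene that overlaps a member is named. Also named are EEF1G, for its overlap, and the genes at least 1.5-fold higher in the stress response and supply lists.

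Reads were recovered from TPM times gene length, a step chosen after seeing the data. With a tolerance of 0.01, 92.4% and 92.5% of genes of at most 10 reads came out whole in the control and XPR1-siRNA libraries, but only 55.5% of protein-coding genes in each. Of the 35 members, 16 had whole reads in both libraries, so intervals of the others are approximate. The 95% Clopper-Pearson intervals cover counting error only, and PCR copies were not marked by molecular identifiers, so reads are not independent molecules. The planned comparison of protein length and identity was not made. Alternatives were other pseudocounts, floors, scalings and member sets. Python 3.11.15, numpy 2.4.6, pandas 2.3.3, scipy 1.17.1 and matplotlib 3.10.9 were used, and the scripts were tested on simulated data. No column of sample values was left unused.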

Additional observations from a re-analysis of the deposited data

How the results depend on the processing

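The cytosolic median, -0.61, was -0.66 with median-of-ratios scaling between libraries, -0.70 with upper-quartile scaling, -0.68 with trimmed-mean scaling, and -0.67 as a mean. The mitochondrial median, 0.27, was then 0.22, 0.19 and 0.20, and 0.08 as a mean. The ratio of cytosolic sums was then 0.564, 0.550 and 0.558, and that of mitochondrial sums 1.08, 1.05 and 1.06, in the order of the scalings. By counting intervals wholly past 1.5-fold, an alternative chosen after seeing the data, 9 cytosolic genes and 1 mitochondrial gene were lower. The gap between the medians ran from -0.76 to -0.91 over the alternatives. Scaling turned the sign of EARS2, FARSA, HARS1 and YARS2, all near 0, in some settings. Upper-quartile scaling took FARSB (-0.61) and IARS1 (-0.60) past 1.5-fold lower, and trimmed-mean scaling took FARSB (-0.59) past it. The cytosolic genes at least 1.5-fold lower numbered 12 with upper-quartile and 11 with trimmed-mean scaling, beside 10 in the main setting. PARS2 passed 2-fold lower under the 3 scalings (-1.01, -1.04 and -1.03) and with a pseudocount of 0.1 (-1.08), so that 1 mitochondrial gene was counted there and 0 otherwise. With a pseudocount of 0.1, TARS2 (0.59) and SARS2 (0.93) passed 1.5-fold on the higher side. Medians of the mitochondrial tRNA maturation list and the tRNA export list turned below 0 under at least 1 scaling. In the main setting, 2716 of all 16319 genes were 1.5-fold lower and 3541 higher (2-fold 1398 and 1699). With a pseudocount of 5 the counts were 1485 and 2076 (2-fold 530 and 577). With a floor of 5 TPM they were 1427 and 2077 (2-fold 634 and 855), and among protein-coding genes 1294 and 2424 (2-fold 535 and 1023). The higher floor and the protein-coding set hold fewer genes, so their counts cannot be compared with the main ones as shares. No paired analysis was possible because the control and the XPR1 siRNA each have a single library.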

Other observations

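Other promoter motifs were searched in the same windows, on both strands, and none of their matches in the members overlapped a match of another motif. The E-box CACGTG stood in 1 of 16 cytosolic and 3 of 14 mitochondrial genes, beside 8.77% of all genes with a window. The letters GCGCNTGCG, the core of the motif of NRF1, a regulator of nuclear genes for mitochondria, stood in 4 of 16 and 4 of 14, beside 9.01%. The ETS-type letters CCGGAAG stood in 9 of 16 and 7 of 14, beside 12.2%. Of the protein-coding genes with a window, 10.9%, 12.5% and 16.5% held the E-box, NRF1 and ETS letters. Of the 10310 genes with a window and a mean of at least 1 TPM, 1298, 1781 and 2285 held them. Genes holding the E-box, NRF1 or ETS letters were at least 1.5-fold lower in 11.6%, 8.59% and 10.2% of cases, against 11.8% of all 10310 genes with a window, all counted among genes whose mean reached 1 TPM.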
